A study of Mus musculus with 4 samples.

Results

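The genes described here are 10 transcriptional regulators of hematopoietic stem and progenitor cells (HSPCs), Hlf, Mecom, Meis1, Hoxa9, Nkx2-3, Prdm16, Erg, Lmo2, Runx1, and Mycn, out of 32285 genes counted. They were chosen from earlier results of these same libraries, so their levels are a description and not a test. They were followed in barcodes with at least 1 UMI (unique molecular identifier, 1 captured RNA molecule) each of Kit, the receptor of stem cell factor, and Cd34, a progenitor surface protein, among barcodes with at least 1000 genes and at most 10% mitochondrial UMIs. This gate held 5331 of 16261 barcodes. The 4 droplet libraries, 1 per group, came from C57BL/6J mice of 8 to 16 weeks: bone marrow (CBM) and spleen (CS) of control mice, and bone marrow (TBM) and spleen (TS) of mice bearing PyMT-B6 tumors. PyMT-B6 is a mammary tumor line of the same mouse strain, which the study grew under the skin. In every group the tissue was digested, depleted of lineage-positive cells, and sorted into several gates, of CD45-positive cells with c-Kit (with or without Sca-1) and of CD45-negative cells, which were pooled in equal amounts per gate. The share of any cell type therefore depends on the sort and cannot be read as its share in the tissue. The number of mice per library is not given in the sources used here. With 1 library per group no difference between groups could be tested, and each interval below is a 95% interval that covers counting error only.

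Hematopoietic stem cells renew themselves and feed every blood lineage through a network of DNA-binding proteins, and the spleen can take up this task outside the marrow, a process called extramedullary hematopoiesis (EMH). Hlf, Mecom, Prdm16, and Nkx2-3 are known from the most immature cells. Meis1 and Hoxa9 are homeodomain partners of stem cells and early progenitors, whereas Erg, Lmo2, and Runx1 belong to a core of factors that also serves megakaryocytes, erythroid cells, mast cells, or lymphocytes. Mycn is a MYC family factor that drives growth beside Myc.

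The libraries held 101811035 to 176094297 UMIs, and the gate took 1478 CBM, 1979 TBM, 562 CS, and 1312 TS barcodes with median depths of 18656 to 26942 UMIs. Among all barcodes kept, 27 barcode sequences occurred in more than 1 library, 5 of them within the gate. The gated barcodes were mixed. Ly6a (Sca-1), a stem cell surface protein, had a UMI in 27.5% of them in CBM and 31.0% in TBM, and in 24.7% of the CS and 35.7% of the TS barcodes. Mpo and Elane, granule enzymes of granulocyte-monocyte progenitors (GMPs), passed a single level for all libraries in 29.2% of the CBM, 30.2% of the TBM, 21.4% of the CS, and 17.7% of the TS barcodes. That level, 1636 CPM for Mpo, lies below the free RNA of both marrows (3071 CPM of Mpo in CBM and 2872 in TBM) and above that of both spleens (549 and 545 CPM). Set against the free RNA of each library instead, 4 CBM, 11 TBM, 116 CS, and 232 TS barcodes passed, so these shares depend on the rule. Levels are given as UMIs per 1000000 UMIs (CPM) summed over the barcodes. The 5 erythroid markers summed to 214 and 227 CPM in the marrow gates but 453 and 577 CPM in CS and TS, and the markers went opposite ways: Car1 was at 34.5 CPM in CBM and 495 CPM in TS, Hba-a1 at 165 and 41.8 CPM. With barcodes of any lineage class left out, their sum was 314 and 309 CPM in the marrows and 197 and 253 CPM in the spleens. The 5 megakaryocyte markers summed to 339 to 519 CPM in CBM, TBM, and CS and to 104 CPM in TS, with no marker of either list at 0. Pf4 made up most of that gap, at 257 to 367 CPM in the first 3 libraries against 40.0 CPM in TS. Itga2b was at 50.3 CPM in TS, near or above the controls (41.0 CPM in CBM, 48.8 CPM in CS) but below TBM (107.7 CPM). With barcodes of any lineage class left out, the megakaryocyte sum was 70.6 CPM (CBM), 136 CPM (TBM), 69.3 CPM (CS), and 94.7 CPM (TS). In such sums, fewer cells of a type and less RNA per cell cannot be told apart, and the part of these markers in the levels below was not tested.

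Promoters of 3 genes are printed because Hlf, Mecom, and Nkx2-3 had the lowest spleen levels relative to CBM. The sequences are those of RefSeq on GRCm38.p6, read 5′ to 3′ along the strand of the gene, each 300 bases long around a transcription start. The table held 13 promoters for 9 of the 10 genes, and Lmo2 had no entry. Capitals mark matches to the letters GGAAG, a core bound by ETS factors such as Erg, or TGACAG, a core bound by MEIS factors, on either strand.
Hlf, chr11:90390868-90391167, minus strand: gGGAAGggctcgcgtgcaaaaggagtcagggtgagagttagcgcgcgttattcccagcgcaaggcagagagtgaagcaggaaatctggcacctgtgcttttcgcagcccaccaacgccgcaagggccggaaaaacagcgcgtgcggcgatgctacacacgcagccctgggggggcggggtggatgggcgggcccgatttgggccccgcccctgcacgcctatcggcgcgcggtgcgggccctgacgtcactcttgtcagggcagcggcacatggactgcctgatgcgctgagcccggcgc
Mecom, downstream start, chr3:30013155-30013454, minus strand: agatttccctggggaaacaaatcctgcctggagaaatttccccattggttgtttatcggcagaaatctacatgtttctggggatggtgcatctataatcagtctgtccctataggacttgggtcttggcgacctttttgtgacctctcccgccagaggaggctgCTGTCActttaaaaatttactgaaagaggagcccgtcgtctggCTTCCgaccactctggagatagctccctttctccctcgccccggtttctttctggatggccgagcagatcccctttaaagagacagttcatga
Nkx2-3, chr19:43612075-43612374, plus strand: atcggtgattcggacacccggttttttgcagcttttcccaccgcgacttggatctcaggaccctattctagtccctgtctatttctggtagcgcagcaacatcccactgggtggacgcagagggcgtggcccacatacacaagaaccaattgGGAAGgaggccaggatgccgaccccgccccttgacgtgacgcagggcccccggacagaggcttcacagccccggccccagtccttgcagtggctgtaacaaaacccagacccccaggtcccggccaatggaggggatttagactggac
GGAAG stood in 9 of the 13 promoters and in 71.4% of 32851 promoters of all genes. TGACAG stood in 3 of the 13, of Mecom, Mycn, and Erg, and in 19.2% of all. The RUNX letters TGTGGT were found in a promoter each of Meis1 and Runx1 (16.8% of all), AGATAA of GATA factors in 1 promoter of Erg (11.2% of all), and TTACNTAA of Hlf and its relatives in none of the 13 (2.32% of all). The E-box CAGCTG was also in none of the 13 (16.3% of all). The table lists a second Mecom start, chr3:30509710-30510009 on the minus strand, with 0 matches to any of these motifs, so the matches shown for Mecom hold for its downstream start. These matches describe letters and not binding. The Hlf promoter held 67.3% G and C, against a median of 52.7% over all promoters.

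On GRCm38, the build of the files, Hlf lies on chromosome 11 from 90336536 to 90390895, Mecom on chromosome 3 from 29951296 to 30548008, and Nkx2-3 on chromosome 19 from 43612325 to 43615892. Meis1 is on chromosome 11 from 18879817 to 19018985, Hoxa9 on chromosome 6 from 52223100 to 52231089, and Prdm16 on chromosome 4 from 154316125 to 154636873. Erg is on chromosome 16 from 95359169 to 95586593, Runx1 on chromosome 16 from 92601466 to 92826149, Lmo2 on chromosome 2 from 103957986 to 103981878, and Mycn on chromosome 12 from 12936093 to 12941914. Genes on the opposite strand overlap Mecom, Meis1, Prdm16, Lmo2, and Runx1. The study used a 3′ chemistry and Cell Ranger at default settings, and its handling of strand is not given in the sources used here. Whether reads of these partners entered the counts was not tested. Genes on the same strand overlap Mecom, Meis1, and Hoxa9 and are not among the genes counted.

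Hlf, a bZIP factor that marks the most immature stem cells, was lower in both spleens than in both marrows. Its level was 152 CPM in CBM against 85.8 (TBM), 47.2 (CS), and 41.4 (TS). The Poisson intervals, 148 to 156 CPM (CBM), 83.2 to 88.4 CPM (TBM), 44.0 to 50.6 CPM (CS), and 39.1 to 43.8 CPM (TS), were apart from each other. TS was 3.67-fold below CBM, a log2 ratio of -1.88 (-1.97 to -1.79), and CS was 3.22-fold below CBM. TS and CS lay closer, at -0.19 (-0.32 to -0.06). Within the marrow, TBM over CBM was -0.83 (-0.89 to -0.77).

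**Figure D1:**
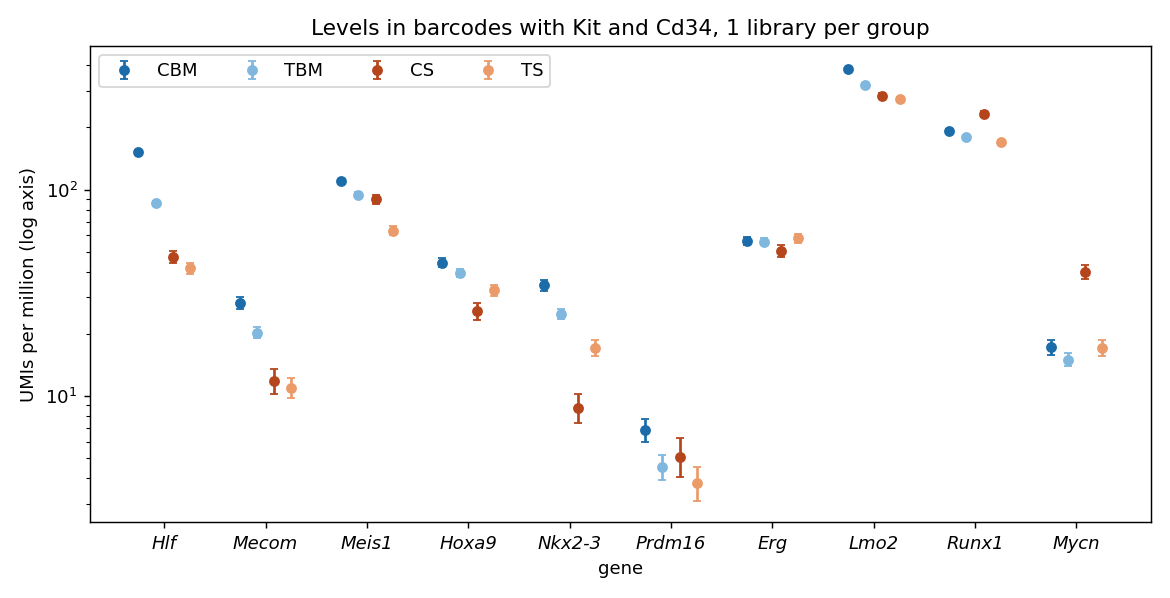
Level of each gene in barcodes with Kit and Cd34, in CPM on a log axis, with 1 point per library and bars for 95% Poisson intervals. Hlf goes from 152 CPM in CBM to 41.4 CPM in TS, Mycn stands apart in CS at 39.9 CPM, and Erg lies between 50.4 and 58.0 CPM in all 4 libraries.

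Mecom (Evi1), a zinc finger factor that long-term stem cells need, had the same order. CBM held 28.2 CPM, TBM 20.2, CS 11.7, and TS 10.9. The intervals of the spleens overlapped, at 10.2 to 13.5 CPM in CS and 9.75 to 12.2 CPM in TS, and both lay below the marrows. TS over CBM was -1.37 (-1.56 to -1.19) and CS over CBM was -1.27 (-1.49 to -1.04). Prdm16, a relative of Mecom that also maintains stem cells, was scarce. Its level was 6.80 CPM in CBM against 4.50 (TBM), 5.05 (CS), and 3.77 (TS), and the CBM interval of 5.94 to 7.75 CPM overlapped that of CS. It stayed under the filter of 10 CPM in every comparison and was left out of the counts past 2-fold.

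Nkx2-3, a homeodomain factor, differed between the spleens. CBM held 34.3 CPM, TBM 24.9, CS 8.68, and TS 17.1. CS was the lowest library, 3.95-fold below CBM. TS lay 1.96-fold above CS, a log2 ratio of 0.97 (0.71 to 1.25), and 2.01-fold below CBM. In barcodes with Ly6a, TS over CS was 0.30, and with barcodes of another class left out CS over CBM was -1.33.

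Hoxa9 measured 44.2 and 39.5 CPM in the marrows (CBM and TBM) and 25.7 and 32.5 CPM in the spleens (CS and TS). CS was again lowest, and TS over CS was 0.34 (0.17 to 0.50). Its partner Meis1 kept another order, with 109 and 94.5 CPM in the marrows (CBM and TBM) and 89.9 and 63.3 CPM in the spleens (CS and TS). TS was below the other 3 libraries, with log2 ratios of -0.79 (-0.87 to -0.71) against CBM and -0.51 (-0.60 to -0.41) against CS. Over the 14 alternatives the ratio to CBM ran from -1.43, in barcodes that also held Procr, to -0.42. The intervals of the TBM and CS levels overlapped.

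The core factors spanned a narrower fold range over the 4 libraries than the genes above, but not in every comparison. For TS over CBM, Lmo2 differed more than Hoxa9. Erg, an ETS factor, measured 56.6 and 55.9 CPM in the marrows (CBM and TBM) and 50.4 and 58.0 CPM in the spleens (CS and TS), and its ratios to CBM had intervals that held 0 for TBM and TS. For Lmo2, a bridging protein of stem cell and erythroid complexes, CBM held 384 CPM, TBM 323, CS 286, and TS 275, and TS over CBM was -0.48 (-0.52 to -0.44). Runx1, a founding factor of definitive blood formation, was highest in CS, with 193 and 179 CPM in the marrows (CBM and TBM) and 232 and 169.5 CPM in the spleens (CS and TS).

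Mycn was set apart by a single library. CBM held 17.2 CPM, TBM 14.95, CS 39.9, and TS 17.1. CS was 2.32-fold above CBM and TS was 2.33-fold below CS, whereas TS over CBM was 0.00 (-0.18 to 0.17). These values moved with the choice of barcodes. Among barcodes that also held Procr, a stem cell surface receptor, the log2 ratio of CS over CBM was 0.43 and that of TS over CBM was -0.62, and with barcodes of another class left out by the free RNA of each library they were 1.88 and 0.65. With Ly6a, CS over CBM was 0.76. With barcodes thinned to 5000 UMIs before the gate, CS over CBM was 0.90 and TS over CS was -0.54, and with barcodes weighted equally TS over CS was -0.91, so neither 2-fold difference held under every choice.

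**Figure D2:**
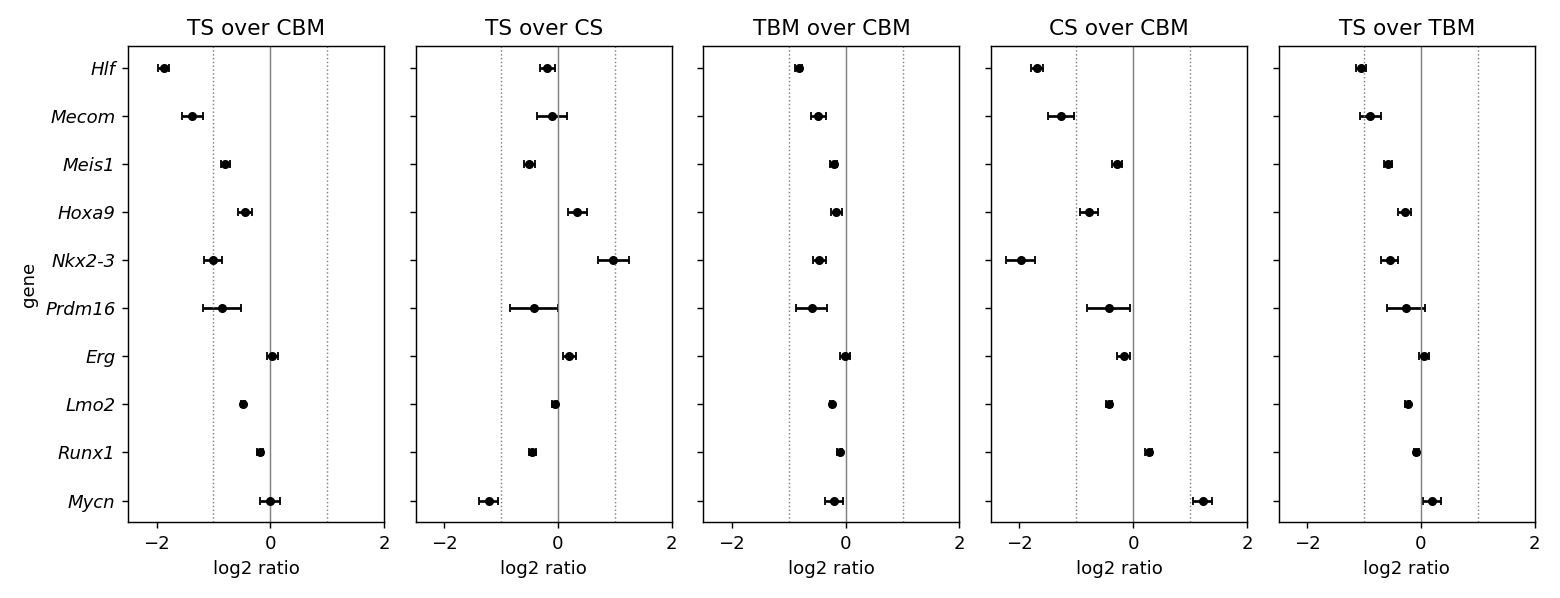
Log2 ratio of the level of each gene in Kit and Cd34 barcodes for the 5 comparisons, with bars for exact 95% counting intervals and dotted lines at 2-fold. Hlf lies left of the 2-fold line where a spleen is set against a marrow (-1.88, -1.69, and -1.05), and Mycn lies right of it for CS over CBM (1.22) and left of it for TS over CS (-1.22).

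Of the 9 members past the filter, 3 (Hlf, Mecom, and Nkx2-3) were at least 2-fold lower in TS than in CBM, as were 1.69% of the 8084 genes compared, and 0 were 2-fold higher (1.15% of all). In CS against CBM, the same 3 were 2-fold lower (0.267% of all) and 1, Mycn, was 2-fold higher (1.38% of all). In TS against CS, 1 was lower, Mycn (1.43% of all), and 0 were higher (0.234% of all). In TS against TBM, 1 was lower, Hlf (0.714% of all), and 0 were higher (0.877% of all). In TBM against CBM, 0 were lower (0.396% of all) and 0 higher (0.408% of all). The members were chosen from these libraries, so nothing is read from the counts. The 2-fold differences of Hlf in TS and CS against CBM and of Nkx2-3 in CS against CBM held under all 14 alternatives. Leaving out barcodes of another class by the free RNA of each library ended others. These were Nkx2-3 (-0.53) and Mecom (-0.92) in TS over CBM, Mecom in CS over CBM (-0.71), and Hlf in TS over TBM (-0.70, against -1.65 with Procr). That of Nkx2-3 in TS over CBM also ended under 6 other alternatives. As GMPs, the free RNA rule took out 4 CBM and 11 TBM but 116 CS and 232 TS barcodes, so the rest may not be like sets. The median of the 10 genes was -0.47 (TS over CBM) and -0.11 (TS over TBM) by this rule. At a single level for all libraries it was -0.90 and -0.51. The median log2 ratio of the 10 genes, Prdm16 included, was -0.64 (TS over CBM), -0.43 (CS over CBM), and -0.27 (TS over TBM). It was -0.23 (TBM over CBM) and -0.15 (TS over CS). For the 9 members past the filter it was -0.48, -0.42, -0.28, -0.21, and -0.11 in that order. The median of all genes past the filter lay between -0.01 and 0.04. The comparisons share libraries and are not independent.

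Further markers showed where in the gate the genes lay. Barcodes that also held Ly6a had more Hlf in each library, 369.7 CPM in CBM against 194 (TBM), 123 (CS), and 72.2 (TS). Here TS over CS was -0.77 (-0.94 to -0.59). Ly6a itself was higher in the TS gate, at 36.3 CPM against 18.6 CPM in CS, also among gated barcodes without a UMI of Hlf (27.9 CPM in TS, 9.49 CPM in CS) and, with a smaller ratio, among those with one (50.6 and 38.0 CPM). In CBM, Ly6a was at 24.1 CPM in the gate, at 5.03 CPM without Hlf, and at 43.2 CPM with it. A UMI of Ly6a may therefore not select like barcodes in the spleens, or in CBM and TS. Its part in the ratios with Ly6a was not tested. Mecom in these barcodes measured 67.6 and 44.9 CPM in the marrows (CBM and TBM) and 32.7 and 19.5 CPM in the spleens (CS and TS), and Meis1 measured 203 and 149 CPM in the marrows (CBM and TBM) and 117 and 86.8 CPM in the spleens (CS and TS). The median of TS over CBM for the 10 genes was -1.11 with Ly6a and -0.49 without it.

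Barcodes with Ly6a and no UMI of Cd48, a surface protein that long-term stem cells lack, had the highest Hlf levels. There were 148 such barcodes in CBM and 140 in TBM but 26 and 34 in CS and TS, too few for a ratio. Hlf there measured 603 and 531 CPM in the marrows (CBM and TBM) and 309 and 228 CPM in the spleens (CS and TS). Mecom was at 110.4 CPM in CBM and 113 CPM in TBM, a log2 ratio of TBM over CBM of 0.03 (-0.26 to 0.32). The absence of a Cd48 UMI depends on depth and on the level of Cd48. Gated barcodes with Ly6a had median depths of 14610 (CBM), 15155 (TBM), 24362 (CS), and 16546.5 UMIs (TS). Cd48 in the whole gate was at 123, 131, 135, and 185 CPM in that order. The barcode counts are therefore not numbers of stem cells. In barcodes with Ly6a and Flt3, a receptor of multipotent progenitors, Hlf measured 382 and 199 CPM in the marrows (CBM and TBM) and 104 and 81.0 CPM in the spleens (CS and TS), and TBM over CBM was -0.94 (-1.04 to -0.84).

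**Figure D3:**
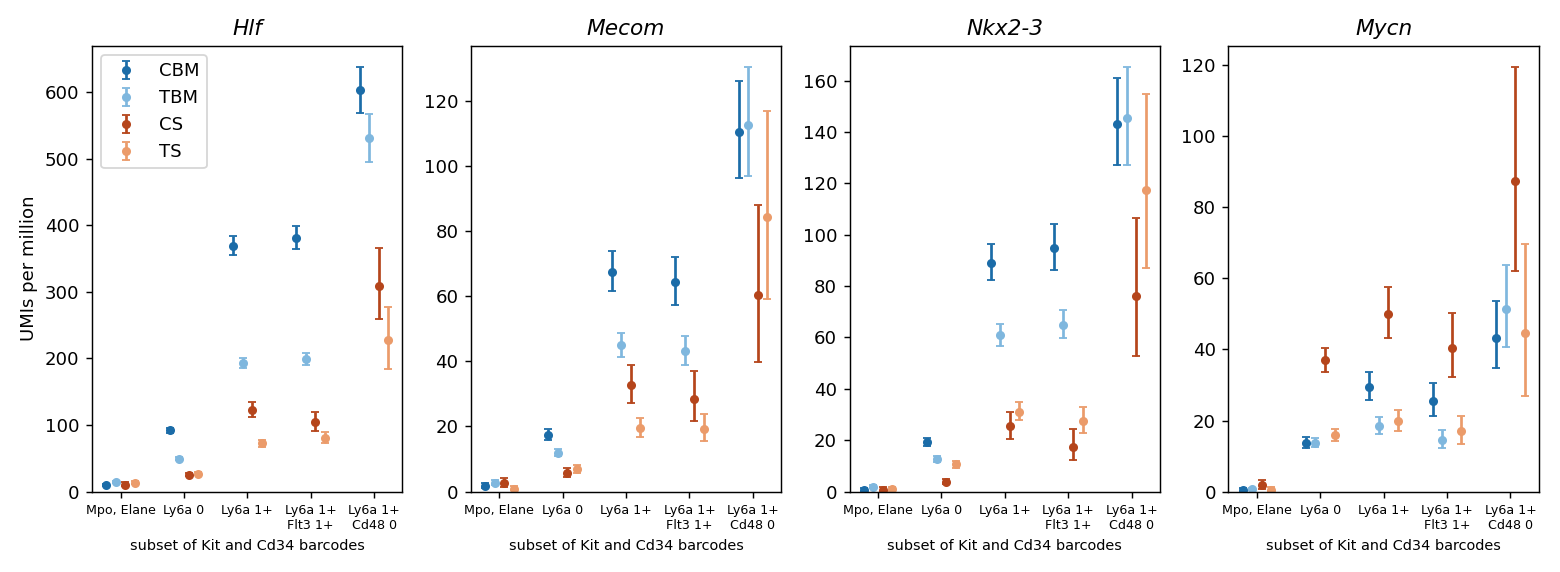
Levels of Hlf, Mecom, Nkx2-3, and Mycn in subsets of the Kit and Cd34 barcodes, in CPM from 0, with 1 point per library and bars for 95% Poisson intervals. Barcodes with Mpo and Elane lie near the axis, and those with Ly6a and without Cd48 are highest, with 603 CPM of Hlf in CBM and 228 CPM in TS.

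Gated barcodes past the level for Mpo and Elane held little Hlf, Mecom, Nkx2-3, and Mycn. Hlf there measured 9.35 and 14.6 CPM in the marrows (CBM and TBM) and 10.5 and 13.2 CPM in the spleens (CS and TS), and Nkx2-3 was at 0.573 to 1.85 CPM. Mecom was at 0.937 to 2.66 CPM and Mycn at 0.435 to 1.72 CPM. Lmo2 and Runx1 were not low, with 222 and 218 CPM in the marrows (CBM and TBM) and 258 and 261 CPM in the spleens (CS and TS) for Lmo2 and 107 to 169 CPM for Runx1. Hoxa9 measured 21.2 and 31.5 CPM in the marrows (CBM and TBM) and 17.7 and 30.5 CPM in the spleens (CS and TS). Both tumor libraries were above their controls, with a log2 ratio of 0.57 (0.37 to 0.77) in the marrow and 0.78 (0.43 to 1.14) in the spleen.

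Barcodes outside the gate were classed by pairs of lineage markers. A first rule, relative to the free RNA of each library, passed 4 CBM and 11 TBM gated barcodes as GMPs against 116 in CS and 232 in TS, so class values here rest on a single level for all libraries, a choice made after seeing the data. The single level of Car1, 239.8 CPM, lies below the free RNA of both spleens (1940 CPM in CS and 1960.4 CPM in TS). It passed 1255 CS and 2262 TS barcodes outside the gate as erythroid, where the first rule passed 8 and 8, so this class depends on the rule. The 5 erythroid markers, those of the rule included, summed to 4017 CPM (CS) and 3709 CPM (TS) in these barcodes, with none at 0. The sums were 453 and 577 CPM in the spleen gates and 14972 CPM (CBM) and 18412 CPM (TBM) in the erythroid barcodes of the marrows. At least 1 marker of the megakaryocyte, mast cell, B cell, and monocyte rules also had a level below the free RNA of 1 or both marrows. The first rule passed 95 CBM and 117 TBM barcodes as megakaryocytes outside the gate against 120 and 142 with the single level, 250 and 310 as mast cells or basophils against 248 and 310, 231 and 160 as B cells against 231 and 158, and 157 and 120 as monocytes against 213 and 147. Hlf was at 0.384 to 7.33 CPM in barcodes with the erythroid genes Klf1 and Car1, and at 0.851 and 1.16 CPM in TBM and CBM barcodes with monocyte genes. In barcodes with the megakaryocyte genes Pf4 and Itga2b, Hlf measured 25.4 and 36.6 CPM in the marrows (CBM and TBM) and 16.6 and 11.6 CPM in the spleens (CS and TS), in each library below the gate. Mecom and Nkx2-3 were also below the gate of their library in every class of at least 50 barcodes.

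Meis1, Mycn, Lmo2, Runx1, and Erg were higher in some lineage class than in the gate, so these 5 were not particular to the gate. Meis1 in megakaryocyte barcodes measured 235 and 215 CPM in the marrows (CBM and TBM) and 207 and 185 CPM in the spleens (CS and TS). Mycn there measured 68.8 and 79.3 CPM in the marrows (CBM and TBM) and 93.8 and 79.7 CPM in the spleens (CS and TS), and Lmo2 477 and 401 CPM in the marrows (CBM and TBM) and 409 and 389.7 CPM in the spleens (CS and TS). The log2 ratio of Mycn in TS over CS was -0.23 (-0.62 to 0.14) in megakaryocyte barcodes. It was -3.42 (-3.80 to -3.07) in erythroid barcodes, a class that depends on the rule. In all barcodes outside the gate it was -1.69 (-1.82 to -1.56), so lower Mycn in TS than in CS was not particular to the gate. In barcodes with the mast cell and basophil genes Cpa3 and Ms4a2, Runx1 was at 568 CPM in CBM, 601 in TBM, and 414 in CS. In barcodes with the B cell genes Cd79a and Ebf1, Erg was at 209 CPM in CBM and 70.6 CPM in TBM.

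**Figure D4:**
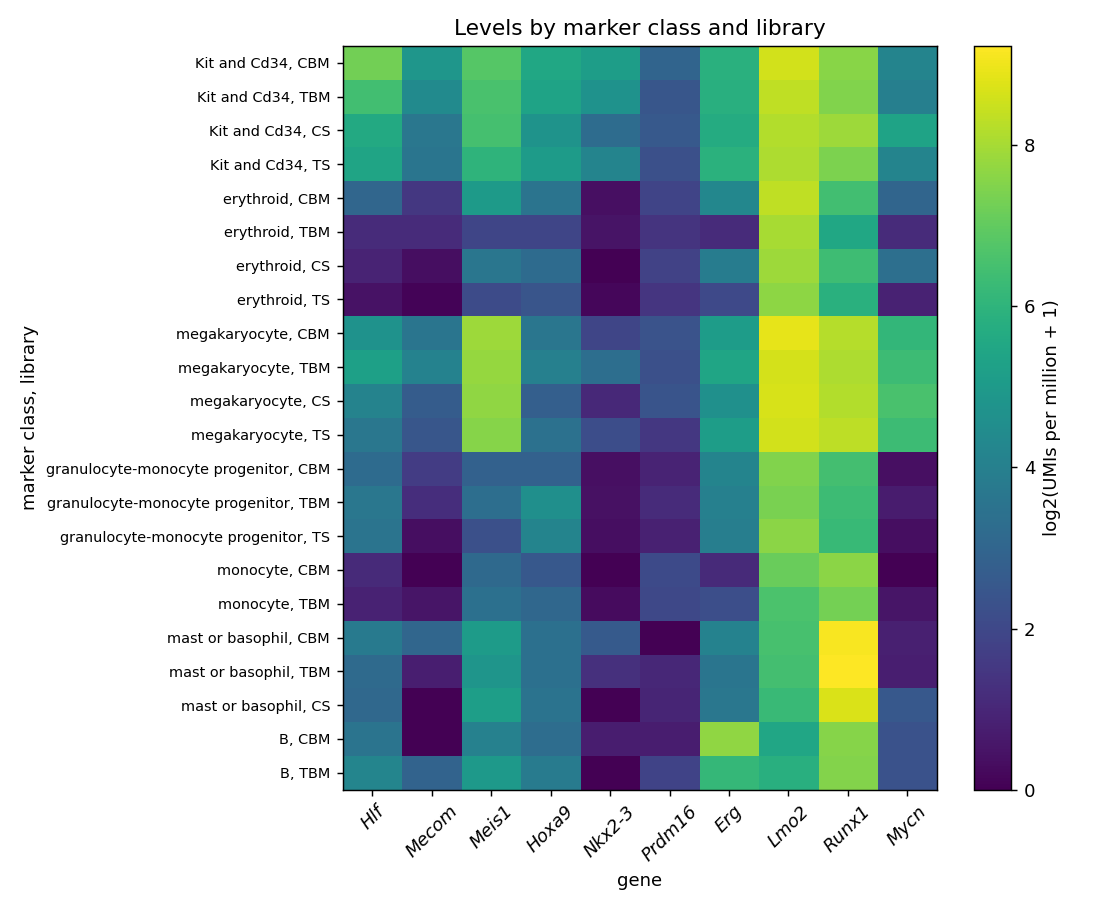
Level of each gene as log2(CPM + 1) by marker class and library (rows) for classes of at least 50 barcodes. Hlf, Mecom, and Nkx2-3 are brightest in the Kit and Cd34 rows, Meis1 and Mycn in the megakaryocyte rows, Runx1 in the mast or basophil rows, and Erg in the B row of CBM at 209 CPM.

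The genes also shared barcodes. In the gate, 852 CBM, 1159 TBM, 200 CS, and 527 TS barcodes held a UMI of Hlf, and these had fewer UMIs at the median than the rest in each library. Mecom in CBM was at 52.2 CPM with Hlf and 4.25 CPM without it, a log2 ratio of 3.62 (3.27 to 3.99), and the ratio was 2.63 in TBM, 2.64 in CS, and 2.30 in TS. For Nkx2-3 it was 3.83 in CBM and 2.13 in TS. Runx1 hardly differed, with ratios of 0.08 to 0.31. Mycn went with Hlf in CBM, at 2.31 (2.00 to 2.65), but not measurably in TS, at 0.06 (-0.21 to 0.32). Mpo went the other way, at -1.46 in CBM and -0.16 in TS.

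**Figure D5:**
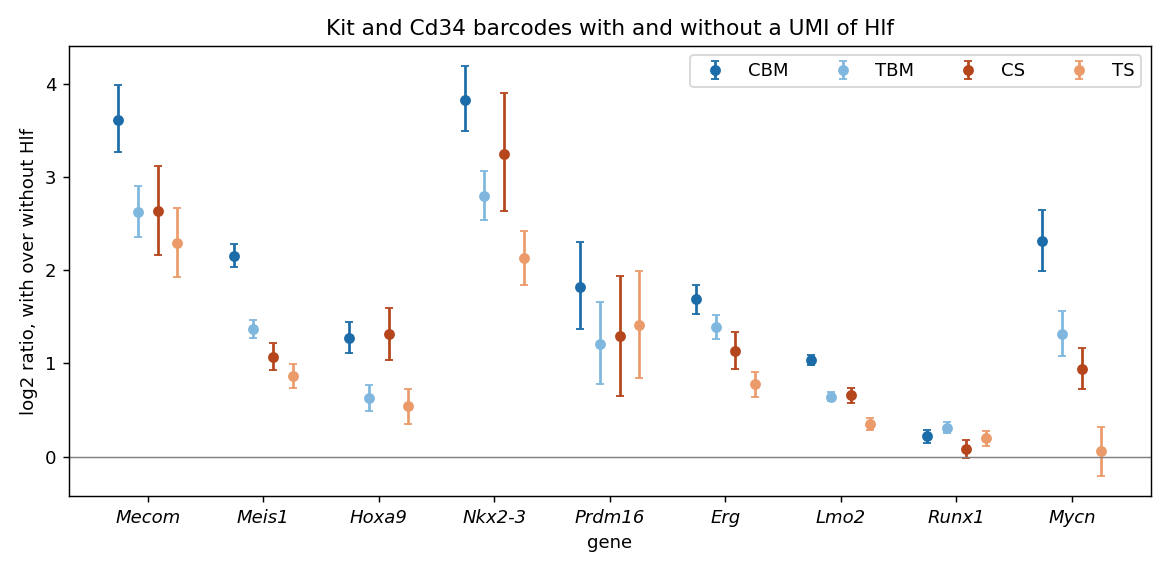
Log2 ratio of the level of each gene between gated barcodes with and without a UMI of Hlf, by library, with bars for exact 95% counting intervals. Mecom and Nkx2-3 lie above 2 in all 4 libraries, Runx1 lies near 0, and Mycn spans 0.06 in TS to 2.31 in CBM.

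Counted per barcode after thinning each to 5000 UMIs, Hlf had a UMI in 39.6% of CBM and 32.0% of TBM gated barcodes and in 18.5% of CS and 20.8% of TS gated barcodes. The thinning left out 39, 71, 4, and 6 shallower barcodes of the 4 libraries in that order, and without it the shares were 57.6%, 58.6%, 35.6%, and 40.2%. Barcodes of the erythroid rule, taken as background under the same limit, with median depths of 15899 to 48564 UMIs, gave 3.77%, 2.00%, 1.04%, and 0.354% after thinning. The background depends on the class. Barcodes of the GMP rule outside the gate gave 2.47% (CBM), 4.94% (TBM), 0% of 14 barcodes (CS), and 8.26% (TS). Lmo2 also serves erythroid cells, so erythroid barcodes are no background for it. It was found in 67.6% to 78.8% of gated and 62.5% to 77.4% of erythroid barcodes. The intervals of its gated and erythroid shares overlapped in CBM, TBM, and CS, whereas in TS they were apart, at 70.6% (68.0% to 73.1%) of gated and 62.5% (60.4% to 64.5%) of erythroid barcodes. At least 5 of the 10 genes were found together in 25.4% of CBM and 20.5% of TBM, and 14.0% of CS and 12.4% of TS, gated barcodes after thinning. Hlf and Mecom were found together in 12.02% (10.4% to 13.8%) of CBM and 3.52% (2.59% to 4.67%) of TS barcodes. The sort for c-Kit and Sca-1 can set such shares.

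Pearson correlations were taken over 22 populations (the gate and the classes by library, several from each library). Only genes reaching 50 CPM in a population were ranked, which left out Mecom, Hoxa9, and Nkx2-3 among others. Unranked, Hlf correlated with Mecom at 0.85, with Hoxa9 at 0.84, and with Nkx2-3 at 0.82, and Mecom with Nkx2-3 at 0.86. Among the ranked genes, those with the highest correlation to Hlf were Cd27 (0.91), Adgrl4 (0.88), and Basp1 (0.82). For Mecom they included Hlf (0.85) and Myct1 (0.81), for Nkx2-3 Vldlr (0.85), Hlf (0.82), and Adgrl4 (0.80), and for Hoxa9 Hlf (0.84), Slco3a1 (0.81), and Cd27 (0.80). Meis1 went with Sugp2 (0.94) and Prkg1 (0.94) among others, Mycn with Ctla2a (0.94), Sugp2 (0.94), and Nrgn (0.93), and Runx1 with Cd84 (0.94), Myh9 (0.94), and Crlf2 (0.93). Erg went with Cxxc5 (0.89), Bbx (0.89), and Ppdpf (0.85), Lmo2 with Ankrd49 (0.91), Kdm2b (0.89), and Suclg2 (0.88), and Prdm16 with Dcun1d1 (0.85), Ccnd1 (0.81), and Pcnt (0.80).

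Other gene lists were measured in the same gated barcodes. Of 26 further stem and progenitor transcription factors, 20 passed the filter for TS over CBM and 0 were 2-fold lower or higher, with a median of -0.15 beside -0.48 for the 9 members past the same filter. The order of the lists was not the same in each comparison. The median of these other factors was 0.20 for CS over CBM (members -0.42) and -0.30 for TS over CS (members -0.11), with 0 past 2-fold in either. Among them, Gata2 was at 103 CPM in CBM and 81.6 CPM in TS, and Myc was at 129 and 130.3 CPM. Of 23 other stem cell genes, 14 passed, 3 were 2-fold lower, Mmrn1 among them, and 1 was 2-fold higher (Ifitm1). For Mmrn1, a platelet and endothelial protein, CBM held 15.2 CPM, TBM 15.5, CS 12.1, and TS 4.85. For Ifitm1, an interferon-induced membrane protein, CBM held 432 CPM, TBM 795, CS 616, and TS 1000.3. The lineage list had 8 of 20 genes 2-fold lower and 2 higher in TS than in CBM, and the cell cycle list had 0 of 12 past 2-fold. Of all genes past the filter, 1.69% were 2-fold lower and 1.15% higher in TS than in CBM. The lists were chosen with earlier results of these data known, so nothing is read from their counts.

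Free RNA and early response genes also differed between the libraries. In barcodes of at most 100 UMIs, Hlf was at 49.0 CPM in CBM and 35.7 CPM in TBM but at 4.93 and 6.10 CPM in CS and TS. Early response and dissociation genes had a median log2 ratio of 1.01 in CS against CBM and 0.73 in TS against CBM. In that order, 7 of 14 and 5 of 13 genes were 2-fold higher, as were 1.38% and 1.15% of all genes. For Egr1, CBM held 150.3 CPM, TBM 172, CS 534, and TS 541. Taking away 10% of the UMIs in the proportions of free RNA left all 50 single-gene ratios within their counting intervals, and the part of the early response genes was not tested. With gated barcodes of any lineage class left out, 862 CBM, 1125 TBM, 307 CS, and 879 TS barcodes remained, and Hlf in them measured 321 and 190.1 CPM in the marrows (CBM and TBM) and 97.6 and 73.2 CPM in the spleens (CS and TS).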

How the data were processed

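Cells of digested, lineage-depleted, and sorted marrow and spleen were loaded on a droplet platform with 3′ chemistry, and the authors aligned reads to mm10 and counted UMIs with Cell Ranger 4.0. The deposited values are raw UMI counts per gene and barcode, without a barcode filter, in 4 libraries of 101811035 to 176094297 UMIs. UMIs of gated barcodes were summed per library and scaled to CPM with exact Poisson 95% intervals. Ratios had exact conditional (Clopper-Pearson) and shares exact binomial 95% intervals, and a count of 0 was set to a floor of 3 counts in a ratio. The interval of a median runs between the medians of the bounds. Counts past 2-fold used genes whose CPM averaged at least 10 in the pair compared. No doublet caller was run, and leaving out the 5% of barcodes with most UMIs was an alternative. A marker class needed 2 UMIs of each of 2 markers. The planned rule also asked for over 3 times their share in the free RNA of the same library, but the class values reported use over 3 times the lowest share of the 4 libraries, a single level that lies below the free RNA of the marrows for Mpo and Elane and of the spleens for Klf1 and Car1, and below that of 1 or both marrows for a marker of the megakaryocyte, mast cell, B cell, and monocyte classes. Neutrophil precursors, planned as background for shares, numbered at most 24 per library, so erythroid barcodes were used. Barcodes of T cells, planned beside them for Lmo2, numbered 30 in CS and 9 in TS, and their shares are not reported here. Named genes were the 10 members, the 3 genes most correlated with each as log2(CPM + 1) over populations of at least 50 barcodes among genes reaching 50 CPM, and list genes, of which some are not reported here. The members and lists were chosen with earlier results of these data known. The ratio and its interval were run on simulated Poisson counts, the error that the interval assumes. That run does not cover spread between barcodes, libraries, or mice. Alternatives covered the gate, filters, depth, scaling, and free RNA. Python 3.11.15, scipy 1.17.1, and edgeR 4.0.16 (TMM factors only) were used, with GENCODE M21 coordinates.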

Additional observations from a re-analysis of the deposited data

Results flagged for a closer look

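Hoxa9 and Nkx2-3 had tumor-to-control log2 ratios of opposite sign in spleen and marrow, with counting intervals off 0 in both. Hoxa9 was at 0.34 for TS over CS and -0.16 for TBM over CBM. Nkx2-3 was at 0.97 for TS over CS and -0.46 for TBM over CBM. The opposite signs were not found in every subset of the gate. For Hoxa9, barcodes with a UMI of Hlf gave -0.10 (-0.33 to 0.14) (TS over CS) and -0.40 (-0.52 to -0.28) (TBM over CBM), and those without one 0.68 (0.44 to 0.92) and 0.25 (0.07 to 0.42) in that order. With barcodes of any lineage class left out, Hoxa9 in TS over CS was 0.06 (-0.16 to 0.27). For Nkx2-3, barcodes with Hlf gave 0.59 (0.29 to 0.89) and -0.62 (-0.75 to -0.50), and those without it 1.71 (1.11 to 2.36) and 0.41 (-0.01 to 0.83). A UMI of Hlf, itself a member, was found in different shares of the gate (57.6% of CBM, 58.6% of TBM, 35.6% of CS, 40.2% of TS), and barcodes without one held 3809, 3277, 2039.8, and 1307 CPM of Mpo in that order, so the split may not select like barcodes. With 1 library per group the difference between the tissues was not tested.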

How the results depend on the processing

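No paired analysis was possible because each group holds 1 library. Of the 43 single-gene ratios whose intervals lay off 0, 36 kept their sign under all 14 alternatives, those of Hlf, Mecom, and Nkx2-3 among them wherever their intervals lay off 0, but the 2-fold differences of Mecom against CBM, of Nkx2-3 in TS over CBM, of Hlf in TS over TBM, and of Mycn did not hold under each of them. The median of the 10 genes kept its sign in every comparison under the 14 alternatives, but not in the subset past the level for Mpo and Elane. Requiring Ly6a moved it to -1.11 (TS over CBM), -0.55 (TBM over CBM), -0.93 (CS over CBM), and -0.56 (TS over TBM). Requiring Procr gave -1.05, -0.36, -0.85, and -0.63 in that order. As said above, a UMI of Ly6a may not select like barcodes in each library. Leaving out barcodes of another class by the free RNA of each library, which took out few marrow GMPs, gave -0.47, -0.37, -0.14, and -0.11. With a single level for all libraries, added after seeing the data, the medians were -0.90, -0.35, -0.65, and -0.51. A total without mitochondrial, ribosomal protein, and hemoglobin genes gave -0.72 for TS over CBM, and 2 UMIs each of Kit and Cd34 gave -0.37 for TS over CS. At 1.5-fold, 1 member was higher for TS over CS (2.22% of all genes), 1 lower for TBM over CBM (2.29%), and 2 lower for TS over TBM (2.54%), and nothing is read from these counts.

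The sign turned for Runx1 in TS over CBM (0.066 without other classes, 0.019 with a single level, 0.052 thinned before the gate). Runx1 turned in TBM over CBM (0.075 thinned, 0.021 with barcodes weighted equally, 0.069 without other classes at a single level) and in TS over TBM (0.014 with 2 UMIs, 0.0069 with Ly6a, 0.17 without other classes). Lmo2 turned in TS over CS (0.050 with TMM factors). In CS over CBM, Meis1 (0.12), Prdm16 (0.13), and Erg (0.16) turned without other classes by the free RNA of each library. That rule took out 4 CBM but 116 CS barcodes as GMPs. At a single level for all libraries these genes did not turn in CS over CBM. Prdm16 (0.069) and Erg (0.013) also turned when thinned. The cause was not tested. Prdm16, with 86 to 227 UMIs per gate, had few counts.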

Other observations

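In gated barcodes that lacked Hlf, the log2 ratio of Mycn was 2.42 (2.09 to 2.76) for CS over CBM and 1.55 (1.22 to 1.90) for TS over CBM. In those that held Hlf, TS over CBM was -0.70 (-0.95 to -0.46). Erg gave 0.78 (0.61 to 0.95) without Hlf and -0.14 (-0.26 to -0.01) with it. The barcodes without Hlf may not be like sets, since they held 3809 CPM of Mpo and 2806 CPM of Elane in CBM, 2039.8 and 1689 CPM in CS, and 1307 and 925 CPM in TS, and barcodes past the level for both enzymes held little Mycn. The part of this in the ratios was not tested. Among list genes singled out after their values were seen, Mycl, another MYC family gene, was at 8.10 CPM in the CS gate and at 0.183 to 0.629 CPM in the other 3. For Irf8, a factor of monocytes and dendritic cells, CBM held 279 CPM, TBM 96.0, CS 260.0, and TS 50.9. These values carry no replicate check.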
